A study of Homo sapiens with 8 samples.

Results

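The 10 genes examined encode enzymes of phase II drug metabolism: the sulfotransferases SULT2A1, SULT1A1, SULT1E1 and SULT1C2, the soluble glutathione transferases GSTA1, GSTP1, GSTK1 and GSTO1, and the microsomal members MGST1 and MGST3. They were chosen by name, out of 17132 genes to which at least 1 assembled transcript of the series could be given. RNA-seq had been run on HepG2 cells and on cells labelled Hep3B, both human hepatocellular carcinoma (HCC) lines. Each line was treated for 48 h with sodium pentaborate pentahydrate (NaB), with curcumin and piperine (Cur+Pip), or with NaB, Cur and Pip together (combination), and was compared with an untreated control. The NaB dose was 2500 µM in HepG2 and 1700 µM in Hep3B, and Cur and Pip were given at 30 µM and 6 µM in both. Cur and Pip had been dissolved in DMSO, and a solvent control is not described. There was 1 library per condition, so within a line no difference could be set against the spread between cultures and no test was made there.

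Sulfotransferases move a sulfonate group from the donor PAPS (3'-phosphoadenosine 5'-phosphosulfate) to hydroxyl groups of steroids, phenols and drugs. Glutathione transferases couple the tripeptide glutathione to reactive electrophiles, and the products leave the cell through ATP-driven pumps. Both families are abundant in hepatocytes, where they clear hormones, bile acids and xenobiotics, and polyphenols such as curcumin are themselves sulfated.

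Levels are given as FPKM, fragments per kilobase of assembled transcript scaled to the mapped fragments of the library, summed over all transcripts given to a gene. Because the level is divided by transcript length, it can be compared between genes, but it also moves when Cufflinks assembles a longer or a shorter transcript of the same gene. Each difference was therefore also taken with depth apportioned over annotated exons, and as length-free abundance, which is FPKM times the length of the assembled transcript. The 95% interval beside a level is built from the Cufflinks intervals of its transcripts and covers the error of estimating 1 library. A gene for which no transcript was assembled is listed at 0, which can be a failed assembly: albumin was listed at 0 in the HepG2 control, and the housekeeping genes TBP and PPIA in 1 and 2 of the Hep3B-labelled libraries.

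The libraries held 25.6 to 35.7 M fragments as estimated from coverage, and 12185 to 12994 genes were listed in each. Of 15 hepatocyte markers, 12 to 15 reached 1 FPKM in the HepG2 libraries, and 0 to 1 did in the Hep3B-labelled libraries, with summed levels of 7011 to 15590 FPKM and 0.456 to 4.92 FPKM. These libraries therefore lacked the defining genes of the hepatocyte lineage that their label names, and they are called Hep3B-labelled throughout. The share of assembled transcripts with a single exon was 22.7% after NaB, 34.1% after Cur+Pip and 32.2% after the combination, against 16.4% in the HepG2 control, and 19.1%, 22.4% and 28.4%, against 14.7% in the Hep3B-labelled control. Whether this shift takes part in the differences below was not tested.

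The start regions of 4 members on which the results turn are shown as they stand in RefSeq (GRCh38.p14), from 250 bases before the annotated start to 50 bases after it, 5′ to 3′ on the strand of the gene. SULT2A1 and GSTA1 are shown because both were lower after Cur+Pip, SULT1C2 because it was higher after NaB, and GSTP1 because it was listed in 1 line only. The windows are chr19:47886266-47886565 (minus strand) for SULT2A1, chr6:52803767-52804066 (minus strand) for GSTA1, chr2:108288645-108288944 (plus strand) for SULT1C2 and chr11:67583562-67583861 (plus strand) for GSTP1. Capitals mark matches on either strand. The letters searched were TGANTCA for AP-1 and TGANNNNGC for the core of the antioxidant response element. For the element that nuclear receptors share the search used AGGTCA. The TATA-type promoter was searched for with TATAAA, as written. For HNF1, a factor of liver genes, a shorter stretch of its site was used, GTTAAT.
SULT2A1: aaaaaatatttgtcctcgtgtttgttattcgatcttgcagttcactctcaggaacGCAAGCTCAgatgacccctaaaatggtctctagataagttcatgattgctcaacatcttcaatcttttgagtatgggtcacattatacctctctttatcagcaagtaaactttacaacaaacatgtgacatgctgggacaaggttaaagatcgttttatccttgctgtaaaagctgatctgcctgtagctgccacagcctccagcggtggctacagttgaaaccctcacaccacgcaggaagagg
GSTA1: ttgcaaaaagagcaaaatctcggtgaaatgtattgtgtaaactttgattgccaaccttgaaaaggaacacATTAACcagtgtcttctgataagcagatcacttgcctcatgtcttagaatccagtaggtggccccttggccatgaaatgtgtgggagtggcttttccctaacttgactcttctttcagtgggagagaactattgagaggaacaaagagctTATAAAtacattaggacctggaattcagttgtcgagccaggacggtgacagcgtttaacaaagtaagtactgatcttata
SULT1C2: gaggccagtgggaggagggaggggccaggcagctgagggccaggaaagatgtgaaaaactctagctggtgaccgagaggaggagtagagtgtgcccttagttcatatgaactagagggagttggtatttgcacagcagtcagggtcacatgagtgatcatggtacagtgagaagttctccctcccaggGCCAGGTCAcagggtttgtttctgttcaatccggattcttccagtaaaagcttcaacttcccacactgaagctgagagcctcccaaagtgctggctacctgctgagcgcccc
GSTP1: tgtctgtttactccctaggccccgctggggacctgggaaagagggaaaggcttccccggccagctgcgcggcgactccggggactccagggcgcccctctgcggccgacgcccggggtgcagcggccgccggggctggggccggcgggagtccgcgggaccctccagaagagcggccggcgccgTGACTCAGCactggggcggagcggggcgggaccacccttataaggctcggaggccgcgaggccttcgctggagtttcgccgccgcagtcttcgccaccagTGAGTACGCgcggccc

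Positions are counted from the first transcribed base, taken as 0. SULT2A1 held 1 match, to TGANNNNGC on the opposite strand at -195. GSTA1 held a TATAAA at -30 and a GTTAAT on the opposite strand at -180. In SULT1C2 an AGGTCA at -59 overlapped a TGANNNNGC of the opposite strand at -62, and in GSTP1 TGANTCA and TGANNNNGC both began at -66 and overlapped, with a second TGANNNNGC at 34. The motifs are common: among 35116 promoters of the same length, TGANTCA was in 7.71%, TGANNNNGC in 41.8%, AGGTCA in 13.8%, TATAAA in 11.5% and GTTAAT in 6.88%. A match describes the letters and is not evidence of binding. The GSTP1 window had 36 CpG dinucleotides and 74.0% G+C, and 87.3% of all promoters had fewer CpG. SULT2A1 had 6, GSTA1 4 and SULT1C2 3, against a median of 14 over all promoters.

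The summed level of the sulfotransferases was lower in HepG2 after Cur+Pip, with or without NaB, and SULT2A1 and SULT1A1 made up most of the sum in the control. SULT1C2, with 4.38 FPKM in the control, was higher after the combination, so the members did not move together. The sum was 208.7 FPKM after NaB, 37.4 after Cur+Pip and 29.9 after the combination, against 220.1 in the HepG2 control. SULT1A1 was the only one listed in the Hep3B-labelled libraries, with sums of 14.7, 15.7 and 9.21 FPKM, against 17.3 in the control. The summed level of the glutathione transferases was 502.7 FPKM after NaB, 418.9 after Cur+Pip and 420.5 after the combination, against 375.3 in the HepG2 control, so in FPKM this class was not lower there. It was 487.7, 666.1 and 495.2 FPKM in the Hep3B-labelled libraries after these treatments, against 704.5 in their control. These sums depend on the measure. In HepG2 after the combination GSTO1, MGST1 and MGST3 were higher in FPKM, with log2 fold changes of 0.60, 0.50 and 1.19. Apportioned over annotated exons they were at -0.10, -0.19 and 0.94, so only MGST3 was higher. GSTA1 and GSTK1 were lower there by both measures. The highest single member was MGST1 in all libraries but the Hep3B-labelled control, where MGST3 was.

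**Figure D1:**
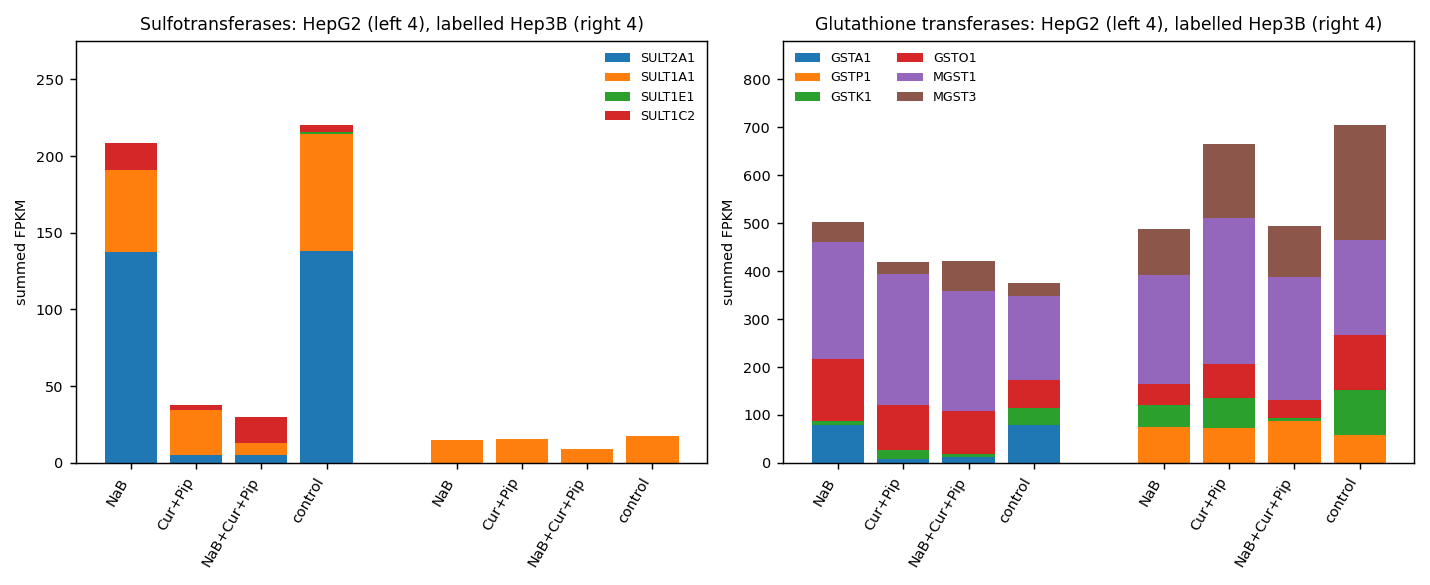
Summed FPKM (vertical axis) of the 4 sulfotransferases (left panel) and the 6 glutathione transferases (right panel) in each library, stacked by gene; the 4 bars on the left of each panel are HepG2 and the 4 on the right the Hep3B-labelled libraries. The SULT2A1 block makes up 62.7% of the sulfotransferase sum in the HepG2 control and 65.8% after NaB, and nearly vanishes in both bars with Cur+Pip.

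SULT2A1, the hepatic enzyme that sulfates dehydroepiandrosterone and bile acids, was lower in HepG2 wherever Cur and Pip were given. It lies on chromosome 19 (47870467 to 47886315, minus strand). Its level was 137.3 FPKM (95% interval 130.8 to 143.8) after NaB, 4.98 (4.38 to 5.58) after Cur+Pip and 5.18 (4.15 to 6.20) after the combination, against 138 (131.5 to 144.5) in the control. The intervals of the NaB library and the control overlapped, and in FPKM so did those of the 2 libraries with Cur and Pip. The ratio of control over treated was 27.7 after Cur+Pip and 26.7 after the combination, or log2 fold changes of -4.54 and -4.49. Added to NaB, Cur+Pip gave a log2 difference of -4.48, and added to Cur+Pip, NaB gave 0.05. The other measures set these 2 apart: against the control, Cur+Pip and the combination stood at -4.55 and -5.22 apportioned over annotated exons and at -4.70 and -5.38 as length-free abundance. A 6-exon transcript beginning 36 to 84 bases before the start of the canonical transcript was assembled in all 4 HepG2 libraries. That of the combination library was 964 nt long, against 1805 nt in the control. In the Hep3B-labelled libraries no transcript on either strand overlapped SULT2A1.

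SULT1A1, the phenol sulfotransferase for small phenols and for polyphenols, was lower in HepG2 after each treatment and lowest after the combination. The gene is on chromosome 16 (28605196 to 28614279, minus strand). HepG2 had 53.3 FPKM (49.8 to 56.9) after NaB, 29.6 (27.1 to 32.1) after Cur+Pip and 8.08 (6.99 to 9.17) after the combination, against 76.6 (72.3 to 81.0) in the control, and none of these intervals overlap. The log2 fold changes were -0.51, -1.34 and -3.10. In FPKM the combination alone was past the threshold of 1.5 on the log2 scale that the methods of the study use, and Cur+Pip passed it as length-free abundance, at -1.55, and with the largest transcript, at -2.15. Set against the single treatments, the combination stood at -1.75 over Cur+Pip and -2.58 over NaB on the log2 scale. In the same order of treatments, the libraries labelled Hep3B had 14.7 FPKM (13.5 to 15.9), 15.7 (14.3 to 17.0) and 9.21 (8.45 to 9.97), against 17.3 (15.7 to 19.0) in the control. There the combination was lowest too, at a log2 fold change of -0.84, which was -0.26 when transcript depth was apportioned over annotated exons. SULT1A1 has near-identical neighbours, among them SULT1A2, and how the reads were shared among them is uncertain.

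The lines also differed in where SULT1A1 transcripts began. All 4 Hep3B-labelled libraries held multi-exon transcripts that began 13567 to 13593 bases before the 5′ end of the canonical transcript, with 9 to 11 exons. In HepG2 the transcripts that reached the first exons began between 470 bases before that end and 54 bases after it, and shorter ones of the Cur+Pip and combination libraries began further inside the gene. One transcript of the NaB library labelled Hep3B, at 2.41 FPKM, began 200 bases before it. The distant start lies outside the span that GENCODE gives to SULT1A1, and between 64.8% and 81.4% of the exonic bases of the distant-start transcripts lay in the gene. This comparison is one of assembled structures and has no test.

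SULT1E1, the estrogen sulfotransferase (chromosome 4, 69841212 to 69860145, minus strand), was listed in 1 of 8 libraries. It was listed at 0 in HepG2 after all 3 treatments, against 1.11 FPKM (0.761 to 1.47) in the control, and at 0 in all Hep3B-labelled libraries. No fold is given for it.

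SULT1C2, a sulfotransferase of small phenols, was higher in the 2 HepG2 libraries that had received NaB. It lies on chromosome 2 (108288639 to 108309915, plus strand). Its level was 18.1 FPKM (16.4 to 19.9) after NaB, 2.84 (2.31 to 3.37) after Cur+Pip and 16.6 (14.3 to 18.9) after the combination, against 4.38 (3.95 to 4.82) in the control. The log2 fold changes were 1.83, -0.49 and 1.71. Transcript length moved with this difference: the transcript was 1146 nt long after NaB and 3283 nt in the control. With depth apportioned over annotated exons the log2 fold changes were 0.67 after NaB and 0.90 after the combination, and as length-free abundance 0.50 and 0.76, all within the threshold. SULT1C2 was listed at 0 in all Hep3B-labelled libraries.

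**Figure D2:**
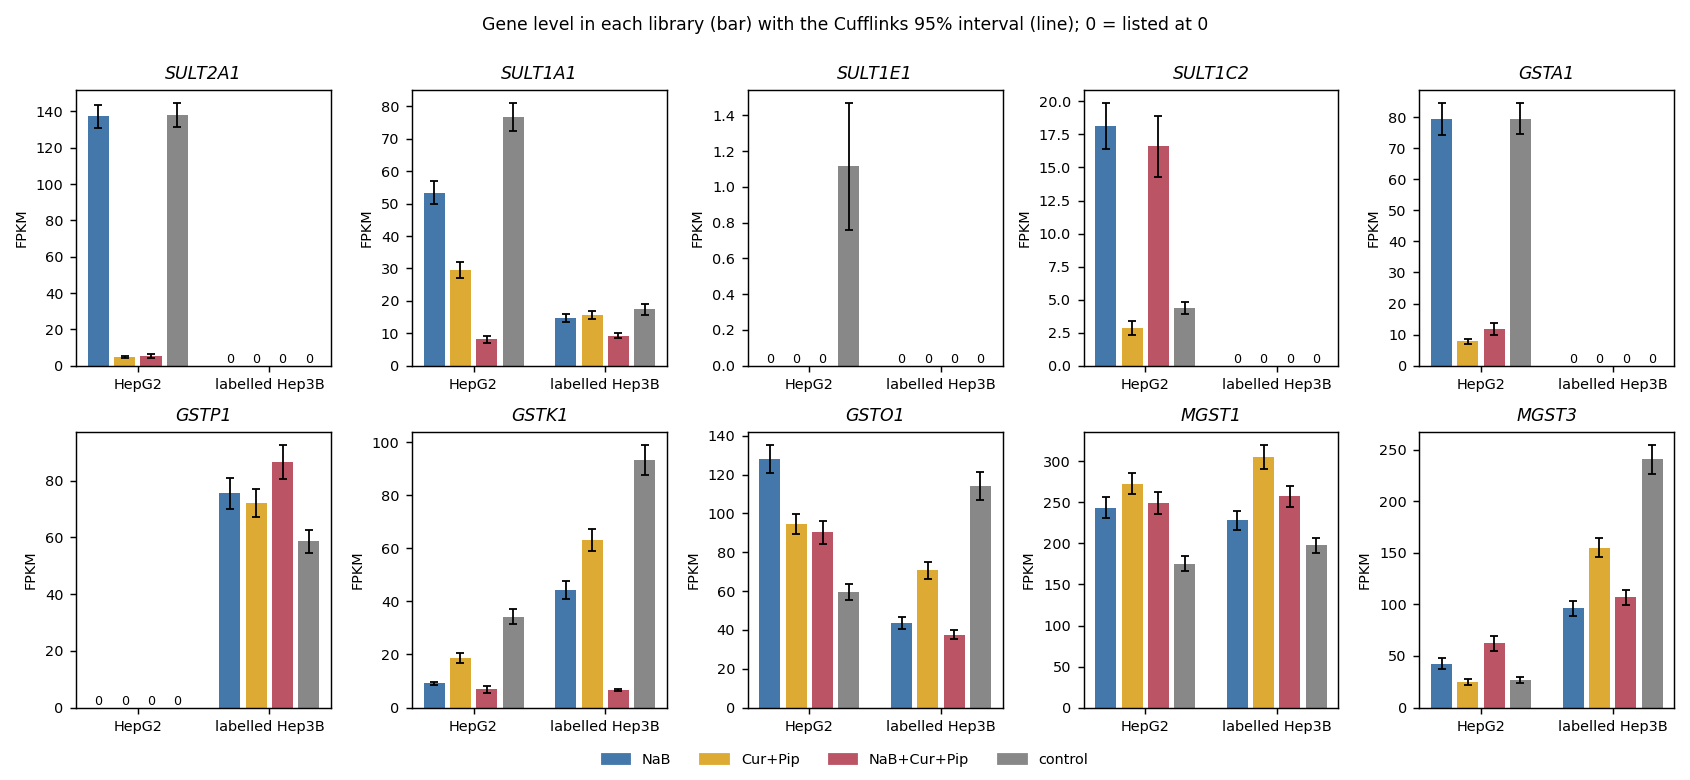
FPKM (vertical axis) of each of the 10 genes in the 4 HepG2 libraries and the 4 libraries labelled Hep3B; bars are single libraries, lines their 95% Cufflinks interval, and a 0 marks a gene listed at 0. SULT2A1 and GSTA1 share the same outline in HepG2, high after NaB and in the control and low in both libraries with Cur+Pip, while GSTP1 is drawn only in the Hep3B-labelled libraries.

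GSTA1, the alpha-class enzyme that is abundant in hepatocytes, followed SULT2A1 in HepG2. The gene is on chromosome 6 (52791371 to 52803860, minus strand). It was at 79.3 FPKM (74.2 to 84.4) after NaB, 7.80 (6.90 to 8.71) after Cur+Pip and 11.8 after the combination, against 79.4 (74.5 to 84.4) in the control. NaB alone left the level within the interval of the control. The control was 10.2 times the Cur+Pip library and 6.74 times the combination library, or log2 fold changes of -3.19 (-3.36 to -3.02) and -2.65 (-2.87 to -2.43). Apportioned over annotated exons they were -2.64 and -2.65, and as length-free abundance -2.67 and -2.87. The transcripts differed at the 5′ end: they began 133 bases before the canonical start after NaB and 62 bases after the combination, but 10874 bases before it after Cur+Pip and 2922 bases in the control. GSTA1 was listed at 0 in all Hep3B-labelled libraries, and its reads cannot be told apart with certainty from those of GSTA2.

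In HepG2 the summed levels of marker lists of several cell types were lower in the libraries with Cur and Pip. Those of intestinal epithelium, fibroblast and leukocyte markers were lower after NaB as well. The summed level of the 15 hepatocyte markers was 15590 FPKM after NaB, 9641 after Cur+Pip and 7011 after the combination, against 12640 in the HepG2 control, where ALB, AFP and APOA2 were listed at 0. Of these markers 14, 15 and 14 reached 1 FPKM, against 12 in the control. HNF4A, the nuclear receptor that maintains hepatocyte genes, was at 89.0, 26.7 and 25.3 FPKM, against 70.7 in the control. Its log2 fold changes were 0.33, -1.37 and -1.45 in FPKM, and -0.07, -0.75 and -1.41 apportioned over annotated exons. The summed level of 8 intestinal epithelium markers, of which 1 reached 1 FPKM in each library, was 72.8, 9.99 and 6.77 FPKM, against 156.6, and that of 6 leukocyte markers, of which 1 to 2 did, was 516.4, 150.4 and 258.0 FPKM, against 1394. Their part in the levels of SULT2A1 and GSTA1 was not tested, and in bulk RNA fewer cells that make a transcript and less of it per cell cannot be told apart.

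GSTP1, the pi-class enzyme that is low in normal hepatocytes and high in many tumours, was listed only in the other line. It lies on chromosome 11 (67583742 to 67586656, plus strand). It was listed at 0 in all 4 HepG2 libraries, and no transcript on either strand overlapped it there. In the Hep3B-labelled libraries it was at 75.6 FPKM (70.0 to 81.1) after NaB, 72.0 (67.1 to 77.0) after Cur+Pip and 86.5 (80.6 to 92.5) after the combination, against 58.6 (54.5 to 62.8) in the control. All 3 treated libraries stood above the interval of the control, with log2 fold changes of 0.36, 0.29 and 0.55. Their transcripts were shorter, at 717, 783 and 641 nt, against 901 nt in the control. As length-free abundance the log2 fold changes were 0.04, 0.09 and 0.07, and apportioned over annotated exons 0.29, 0.22 and 0.34.

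GSTK1, the kappa-class enzyme of mitochondria and peroxisomes, was lower after each treatment in both lines. The gene is on chromosome 7 (143244093 to 143270854, plus strand). HepG2 had 9.09 FPKM (8.47 to 9.71) after NaB, 18.7 (16.9 to 20.4) after Cur+Pip and 6.92 (5.62 to 8.22) after the combination, against 34.2 (31.4 to 37.1) in the control, or log2 fold changes of -1.80, -0.84 and -2.15. The libraries labelled Hep3B had 44.3 FPKM (41.0 to 47.7), 63.0 (58.9 to 67.1) and 6.64 (6.14 to 7.13), against 93.2 (87.5 to 98.8) in the control, or -1.05, -0.56 and -3.62. The combination library was lowest in both lines.

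The assembled GSTK1 transcripts differed as well. In the HepG2 NaB, HepG2 combination and Hep3B-labelled combination libraries, transcripts ran 3307 to 3373 bases past the canonical 3′ end, whereas in the other 5 libraries none passed it. The main one after NaB in HepG2 had 8 exons and 4361 nt, against 944 nt in the control. Apportioned over annotated exons, the log2 fold changes in HepG2 were -0.32 after NaB, -0.54 after Cur+Pip and -1.46 after the combination. As length-free abundance they were 0.33, -0.60 and -1.31, so the direction after NaB was reversed. The combination remained past the threshold, at -2.05 apportioned and -1.53 as length-free abundance, in the Hep3B-labelled libraries.

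**Figure D3:**
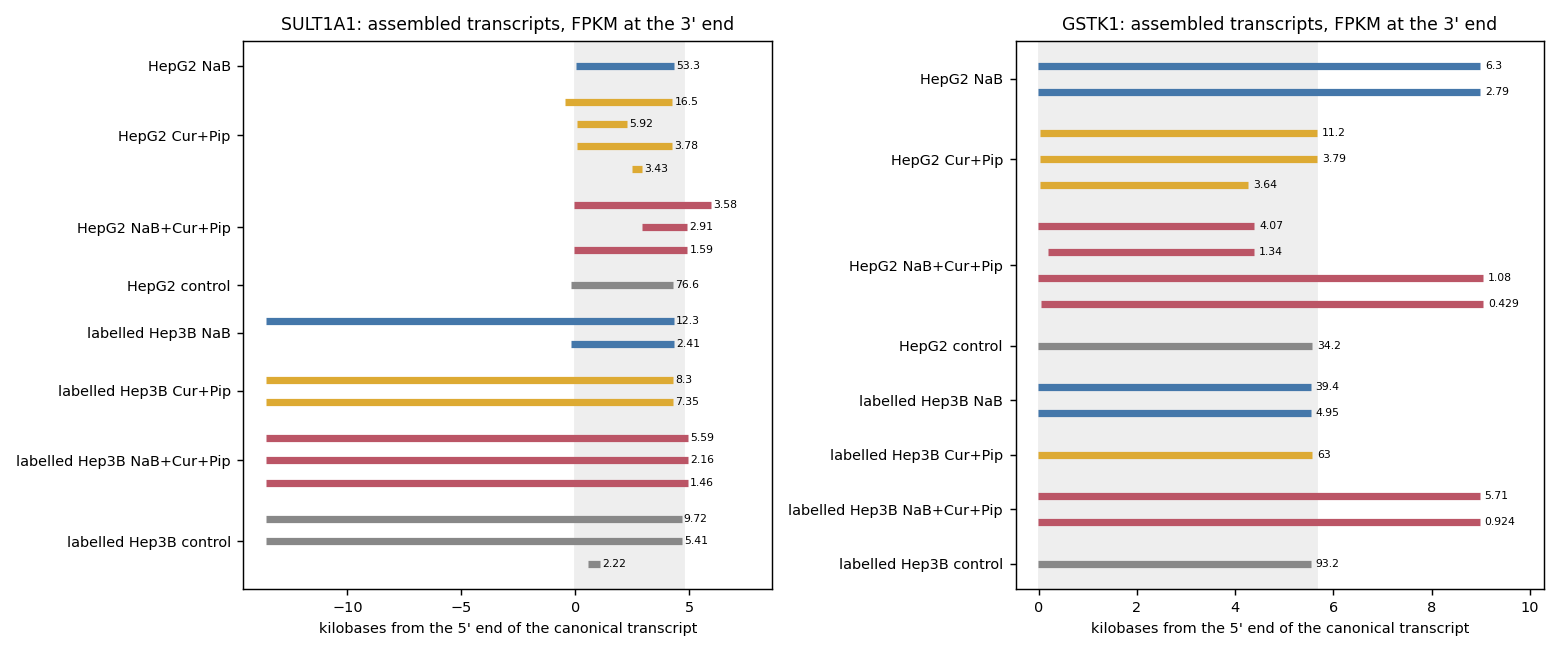
Assembled transcripts of SULT1A1 (left) and GSTK1 (right), 1 horizontal line per transcript and grouped by library, drawn by distance in kilobases from the 5′ end of the canonical transcript; the grey band is the span of that transcript and the number at each 3′ end is the FPKM. SULT1A1 transcripts begin about 13.6 kilobases before the band in all Hep3B-labelled libraries, and GSTK1 transcripts run past the band in the 2 HepG2 libraries with NaB and in the combination library labelled Hep3B.

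GSTO1, the omega-class enzyme that reduces dehydroascorbate and arsenic species, stood on opposite sides of the control in the 2 lines. It lies on chromosome 10 (104235356 to 104267459, plus strand). HepG2 had 128 FPKM (120.7 to 135.2) after NaB, 94.5 (89.2 to 99.9) after Cur+Pip and 90.3 (84.3 to 96.3) after the combination, against 59.4 (55.3 to 63.4) in the control, or log2 fold changes of 1.10, 0.66 and 0.60. The libraries labelled Hep3B had 43.7 FPKM (40.7 to 46.7), 70.8 (66.5 to 75.1) and 37.6 (35.2 to 40.0), against 114.3 (107.1 to 121.5) in the control, or -1.37, -0.68 and -1.58. The HepG2 control transcript ran across GSTO1 and its neighbour GSTO2 and was counted whole for GSTO1; with transcripts that span several genes left out, GSTO1 was listed at 0 in that control. Apportioned over annotated exons, the HepG2 values were 0.43, -0.06 and -0.10, and those of the Hep3B-labelled libraries -0.95, -0.39 and -0.87.

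MGST1, the microsomal enzyme that also reduces lipid peroxides, had levels that overlapped between the lines. The gene is on chromosome 12 (16347142 to 16609259, plus strand). HepG2 had 243.8 FPKM (231.3 to 256.3) after NaB, 273 (260.2 to 285.8) after Cur+Pip and 249 (235.3 to 262.8) after the combination, against 175.5 (166.6 to 184.5) in the control. The libraries labelled Hep3B had 228.1 FPKM (216.4 to 239.8), 305.4 (291.1 to 319.8) and 257.3 (244.9 to 269.6), against 198 (188.7 to 207.2) in the control. Every treated library stood above the interval of its control, and Cur+Pip was highest in both lines, at log2 fold changes of 0.63 and 0.62. These were 0.65 and 0.62 apportioned over annotated exons, whereas in HepG2 after the combination 0.50 became -0.19, and in the NaB library labelled Hep3B 0.20 became -0.23.

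MGST3, a microsomal enzyme with leukotriene C4 synthase and peroxidase activity, was lower in HepG2 than in the Hep3B-labelled libraries under every condition. It lies on chromosome 1 (165631213 to 165661796, plus strand). HepG2 had 42.5 FPKM (37.4 to 47.6) after NaB, 24.9 (21.9 to 27.8) after Cur+Pip and 62.4 (55.2 to 69.7) after the combination, against 26.7 (24.2 to 29.2) in the control. The libraries labelled Hep3B had 96.1 FPKM (88.7 to 103.5), 154.9 (145.6 to 164.2) and 107.1 (99.8 to 114.3), against 240.5 (226.7 to 254.3) in the control. After NaB and after the combination the lines thus stood on opposite sides of their controls, with log2 fold changes of 0.65 and 1.19 in HepG2 and -1.31 and -1.16 in the Hep3B-labelled libraries. As length-free abundance the HepG2 values were -0.15 and 0.26, and the transcript was 508 and 464 nt long, against 900 nt in the control.

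A gene was counted in a line if it reached 1 FPKM in any of the 4 libraries, which 9 of the 10 did in HepG2 and 6 in the Hep3B-labelled libraries. After NaB 2 of the 9 were past the threshold in HepG2, against 9.53% of 13372 genes, with SULT1C2 higher (4.56% of all genes were higher) and GSTK1 lower (4.97%). After Cur+Pip 2 of 9 were, SULT2A1 and GSTA1, both lower, against 19.0% of all genes (8.88% higher and 10.1% lower). After the combination 5 of 9 were, against 19.4%: SULT2A1, SULT1A1, GSTA1 and GSTK1 lower (11.5% of all genes were lower) and SULT1C2 higher (7.91%). The median log2 fold change of the 9 genes was 0.00, -0.84 and -1.08, and that of all genes was 0.00 in each comparison. SULT1E1, listed at 0 in the treated libraries, enters these medians.

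In the Hep3B-labelled libraries, 0 of 6 genes were past the threshold after NaB, against 11.8% of 13269 genes (4.9% higher and 6.93% lower), and 0 of 6 after Cur+Pip, against 10.2% (6.32% higher and 3.84% lower). After the combination 2 of 6 were, GSTK1 and GSTO1, both lower, against 14.7% (6.59% higher and 8.06% lower). The median log2 fold change of the 6 genes was -0.64, -0.35 and -1, and that of all genes -0.12, 0.00 and -0.05. With depth apportioned over annotated exons the genes past the threshold were 0, 2 and 3 in HepG2 and 0, 0 and 1 in the Hep3B-labelled libraries. Those of HepG2 were then SULT2A1 and GSTA1 after Cur+Pip, and these with SULT1A1 after the combination. By that measure 6.86%, 15.4% and 15.9% of all genes were past it in HepG2, and 9.3%, 7.66% and 11.9% in the Hep3B-labelled libraries.

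**Figure D4:**
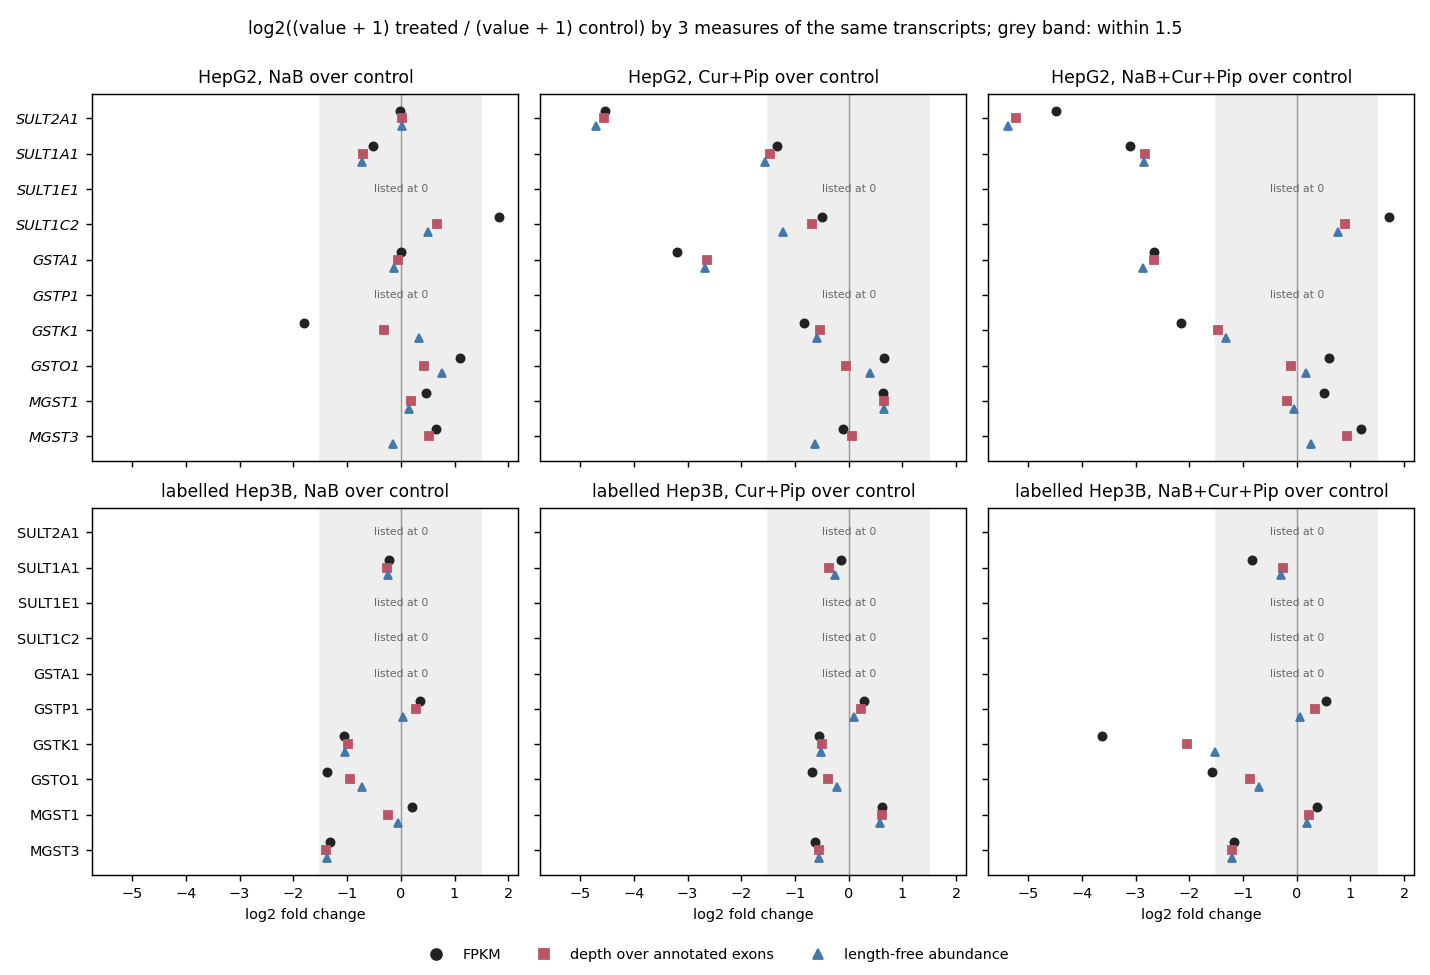
log2 fold change over the control of its own line (horizontal axis) of each gene for 3 treatments (columns) in HepG2 (upper row) and the Hep3B-labelled libraries (lower row), measured as FPKM (circles), depth over annotated exons (squares) and length-free abundance (triangles); the grey band spans the threshold of 1.5 in either direction. The 3 measures lie together past the band for SULT2A1 and GSTA1 with Cur+Pip and for SULT1A1 with the combination, and lie apart for GSTK1 and SULT1C2 after NaB.

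Whether the lines differed was asked with limma over all 8 libraries, in which the 4 conditions serve as replicates of each line. Nothing in the labels says that the libraries came from separately grown cultures, so the p-values measure only the spread between these libraries. Of 9 genes tested, 5 were called at a Benjamini-Hochberg adjusted p under 0.05, against 29.3% of 13805 genes. For 4 of the 5 the call is no independent evidence and no p is given, because they were listed at 0 throughout 1 line and passed the filter on low values through the other. Of these, SULT2A1, SULT1C2 and GSTA1 averaged 4.86 ± 2.60, 3.19 ± 1.18 and 4.87 ± 1.70 in HepG2 on the log2(FPKM + 1) scale (SD, n = 4 libraries), against 0 in the Hep3B-labelled libraries, and GSTP1 was at 0 in HepG2, against 6.20 ± 0.23. The size of these differences depends on the pseudocount and is no fold. The fifth, MGST3, was listed in all libraries and was lower in HepG2, with a difference of -1.91 ± 0.47 (SE) on that scale by limma (adjusted p = 0.0372), at 5.23 ± 0.60, against 7.14 ± 0.59.

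GSTK1 and SULT1A1 missed the threshold, with limma adjusted p of 0.0702 and 0.107 for differences of -1.31 and 1.14, and so did GSTO1 (0.391) and MGST1 (0.806). For MGST1 the difference was -0.07 ± 0.20 (SE), the smallest of the 9. The call of MGST3 was lost without either control or either NaB library, at limma adjusted p of 0.0701 to 0.101, and without either Cur+Pip library, at 0.116 and 0.117. Everything else that differs between the 2 sets of libraries cannot be told apart from the line.

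The same fit asked for a change shared by both lines. By limma 0 of the 9 genes were called after NaB, where 0.0% of all 13805 genes were, 0 after Cur+Pip (0.0362%) and 0 after the combination (0.138%). At an unadjusted p under 0.05 there were 0, 0 and 2 genes, and 5.37%, 6.64% and 11.9% of all genes. The 2 were GSTK1, with a shared difference of -2.89 ± 0.58 (SE, limma adjusted p = 0.35), and SULT1A1, with -1.97 ± 0.61 (adjusted p = 0.369), and both were lower in both lines after the combination. With 3 residual degrees of freedom, the fit takes as noise whatever a treatment did in one line and not in the other. SULT2A1, SULT1C2, GSTA1 and GSTP1 were listed at 0 in every library of a line, so no change shared by both lines could be seen for them. That they were not called says nothing of a treatment effect.

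The donor of the sulfonate group is made by PAPS synthases, and of these PAPSS1 was lower in HepG2 with Cur+Pip. It was at 55.6 FPKM after NaB, 14.6 after Cur+Pip and 19.9 after the combination, against 84.8 in the control, or log2 fold changes of -0.60, -2.46 and -2.04. In the Hep3B-labelled libraries it was at 22.4, 20.3 and 15.4 FPKM, against 49.1, or -1.09, -1.23 and -1.61. It was the only one of 9 measured genes of sulfate and PAPS supply and desulfation past the threshold in HepG2 after Cur+Pip, against 19.0% of all genes. SLC35B2, the PAPS transporter of the Golgi, was listed at 0 after the combination in both lines and after NaB in the Hep3B-labelled libraries, against 77.0 and 88.1 FPKM in the controls. After the combination 2 of 9 genes of the list were lower past the threshold in HepG2, against 11.5% of all genes, and 3 of 9 in the Hep3B-labelled libraries, against 8.06%, with medians of -0.65 and -0.60, against 0.00 and -0.05 for all genes. Of these 3, PAPSS1 and STS were within the threshold when apportioned over annotated exons, at -1.33 and -1.31.

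Several genes of glutathione supply and turnover stood higher after Cur+Pip, and others did not. Of 12 measured in HepG2, 5 were past the threshold and all 5 were higher, against 19.0% of all genes past it and 8.88% higher: GCLC and GCLM (the glutamate-cysteine ligase), CTH, SLC7A11 and SLC3A2 (cysteine synthesis and cystine uptake), of which GCLC and SLC7A11 are named for this count after their values were seen. GCLM was at 10.7 FPKM after NaB, 61.1 after Cur+Pip and 49.1 after the combination, against 11.1 in the control, but with depth apportioned over annotated exons the log2 fold change after the combination was 0.00, against 2.06 in FPKM. SLC3A2 was at 132.9, 475.6 and 668.9 FPKM, against 133 in the HepG2 control, and at 558.1, 1024 and 753.6, against 267 in the Hep3B-labelled control. After Cur+Pip 4 of 13 genes were past the threshold in the Hep3B-labelled libraries, against 10.2% of all genes, and all 4 were higher, against 6.32%: SLC7A11, SLC3A2, CHAC1 and GGT1, the last named after its values were seen. CHAC1 was within the threshold when apportioned over annotated exons, at 1.28, against 1.66 in FPKM. The list holds genes of turnover as well, so neither count is one of supply alone. The medians of the list were 0.26 in HepG2 and 0.79 in the Hep3B-labelled libraries, against 0.00 for all genes in both. OPLAH and GSS were at log2 fold changes of -1.23 and -0.44 after Cur+Pip in HepG2, and CTH at -1.43 in the Hep3B-labelled libraries. In HepG2 CTH was listed at 0 in the control and at 18.55 FPKM after Cur+Pip, a log2 fold change of 4.29. Apportioned over annotated exons this CTH value was 2.23. After NaB alone 0 of 12 genes of the list were past the threshold in HepG2, against 9.53% of all genes. In the Hep3B-labelled libraries 1 of 13 was, CHAC2, a gene named after its values were seen, against 11.8%.

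In FPKM none of 6 pumps that export conjugates was past the threshold in either line after Cur+Pip, where ABCC2, the canalicular export pump, was at 195.2 FPKM, against 78.9 in the HepG2 control, and at 16.9, against 6.28 in the Hep3B-labelled control, a log2 fold change of 1.30 in both. Apportioned over annotated exons, ABCC2 at 1.67 and ABCC6 at -2.11 were past it in HepG2, and ABCC4 at -1.74 in the Hep3B-labelled libraries. After the combination 4 of 6 pumps were lower past the threshold in the Hep3B-labelled libraries, against 8.06% of all genes (ABCC3, ABCC4, ABCG2 and ABCC6, the last named after its values were seen), and 1 of 6, ABCC6, was in HepG2, against 11.5%. ABCC3 was within the threshold when apportioned, at -1.36, against -1.54 in FPKM. ABCG2, which exports sulfate conjugates, was at 8.66 FPKM after the combination, against 40.9 in the Hep3B-labelled control.

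Among 17 measured regulators in HepG2, NR1H4, which encodes the bile acid receptor FXR, was lower wherever Cur and Pip were given. It was at 38.9 FPKM after NaB, 1.28 after Cur+Pip and 1.23 after the combination, against 36.0 in the control, which is the outline of SULT2A1 and GSTA1. Whether NR1H4 takes part in the levels of SULT2A1 and GSTA1 was not tested. CEBPB was listed at 0 after NaB and after the combination, against 45.2 FPKM in the HepG2 control, yet with depth apportioned over annotated exons it stood at log2 fold changes of -0.63 and -0.21. MAFG, a partner of NRF2 at antioxidant response elements, was at 15.2, 54.1 and 46.9 FPKM, against 14.9 in the HepG2 control, and at 13.7, 26.3 and 24.9, against 9.88 in the Hep3B-labelled control. FOXA1 was at 5.81, 9.38 and 6.68 FPKM, against 21.4 in the Hep3B-labelled control. Past the threshold were 1, 4 and 3 of the 17 regulators in HepG2 after NaB, Cur+Pip and the combination, where 9.53%, 19.0% and 19.4% of all genes were, and 2, 0 and 1 of 12 in the Hep3B-labelled libraries, where 11.8%, 10.2% and 14.7% were.

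Among the other members of both families all differences past the threshold in FPKM were toward lower levels. After NaB, Cur+Pip and the combination, 9.53%, 19.0% and 19.4% of all genes were past it in HepG2. Of the genes measured here, 1, 0 and 0 of 2 sulfotransferases and 2, 1 and 3 of 9 glutathione transferases were. In the Hep3B-labelled libraries 11.8%, 10.2% and 14.7% of all genes were, against 1, 1 and 1 of 2 and 0, 0 and 1 of 9. Of 9 further sulfotransferase genes 2 were measured in each line, and SULT1A2 was at 7.09 FPKM after NaB, 10.4 after Cur+Pip and 11.5 after the combination, against 22.9 in the HepG2 control, in FPKM past the threshold after NaB alone, at -1.56. Apportioned over annotated exons its log2 fold changes were -0.46, -1.06 and -1.46, so that the order turned and none was past it. It was listed at 0 after NaB and after the combination and at 0.55 FPKM after Cur+Pip, against 5.39 in the Hep3B-labelled control, and its apportioned values of -1.46, -1.17 and -1.46 were within the threshold. Of 18 further glutathione transferase genes 9 were measured in each line, and GSTZ1, which acts in tyrosine breakdown, was past the threshold after the combination in both. It was listed at 0 in HepG2, against 13.8 FPKM in the control, and at 5.69 FPKM, against 24.3 in the Hep3B-labelled control. GSTM2 was past the threshold after all 3 treatments in HepG2, listed at 0 after NaB and at 0.749 and 1.35 FPKM after Cur+Pip and the combination, against 6.13 in the control. Apportioned over annotated exons it stood at -2.29, -1.97 and -1.49, the last within the threshold. GSTM3 in the Hep3B-labelled libraries had log2 fold changes of 1.06, -1.05 and 1.23 in FPKM, all within it. Apportioned over annotated exons they were 0.20, 0.59 and 0.28, so the direction after Cur+Pip was reversed. GSTM4 was at 5.49 FPKM after the combination, against 20.7 in the HepG2 control, and GSTA2, named after its values were seen, was past the threshold after NaB.

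For the 5 members with an FPKM of at least 5 in all 8 libraries, the genes with the most similar profile were sought among 4875 genes, after each line had been centred on its own mean. The highest Pearson r over the 8 libraries was 0.989 for SULT1A1 with MLF2, 0.981 for GSTK1 with THOC2, 0.986 for GSTO1 with RTL8C, 0.967 for MGST1 with SOD1 and 0.973 for MGST3 with TMEM9B. The size of the differences was not alike: after the combination in the Hep3B-labelled libraries SULT1A1 had a log2 fold change of -0.84 and MLF2 of -0.29. Each r rests on 8 libraries only, and with so many genes searched a high r is a description only.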

How the data were processed

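RNA of HepG2 cells and of cells labelled Hep3B was sequenced in 8 libraries, 1 per condition; the methods speak of RNA isolated in triplicate and do not say how this became 1 library. STAR alignment to GRCh38 and Cufflinks assembly of each library were run by the authors, with versions not given in the sources used here. What they deposited is 1 FPKM per assembled transcript, under identifiers that name no gene, and from 92.7 to 95.3% of their introns equalled one of GENCODE release 44. Each transcript was given to the GENCODE gene on its strand holding at least 50% of its exonic bases (bedtools 2.31.1), and FPKM was summed per gene. Transcripts running across genes, or longer or shorter than the annotation, shift these sums.

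Fold changes were taken on the log2(FPKM + 1) scale, treated minus control, which understates changes of low genes. A gene was counted in a line if any of its 4 libraries reached 1 FPKM, and 1.5 was the threshold. limma 3.58.1 (R 4.3.3) was fitted to log2(FPKM + 1) with line and treatment as terms, over genes that reached 1 FPKM in no fewer than 2 libraries, with Benjamini-Hochberg adjustment. Alternatives were other pseudocounts (0.1 and 5), filters and scaling, the largest transcript, depth apportioned over annotated exons, transcripts under 300 nt or spanning several genes left out, disjoint intervals, a trended variance and each library left out. Length-free abundance, FPKM times assembled length, was added after the data were seen.

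All 10 genes were named, and of each related list up to 3 genes at either end after the combination, from 5 FPKM in treated or control cells upward. Genes of similar profile were the highest by Pearson r. The genes and lists were chosen with earlier results of these data known. SULT1A1 had no entry in the RefSeq promoter table. The fold rule and the limma fit were tested on simulated gene levels, and the assignment of transcripts to genes was not.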

Additional observations from a re-analysis of the deposited data

Results flagged for a closer look

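GSTO1 and MGST3 stood out because HepG2 and the Hep3B-labelled libraries lay on opposite sides of their own controls with Cufflinks intervals that did not overlap in either line. With 1 library per condition the difference between the lines was not tested.

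For GSTO1 the log2 fold change in HepG2 exceeded that in the Hep3B-labelled libraries by 2.47 after NaB (1.10 and -1.37), by 1.34 after Cur+Pip (0.66 and -0.68) and by 2.18 after the combination (0.60 and -1.58). Apportioned over annotated exons, the opposite signs held after NaB alone (0.43 and -0.95), with -0.06 and -0.39 after Cur+Pip and -0.10 and -0.87 after the combination. As length-free abundance they held after all 3 treatments, at 0.77 and -0.72, 0.40 and -0.21, and 0.17 and -0.70.

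For MGST3 the difference was 1.96 after NaB (0.65 and -1.31) and 2.35 after the combination (1.19 and -1.16). Opposite signs held in both when apportioned (0.53 and -1.39, and 0.94 and -1.21). As length-free abundance the pair was -0.15 and -1.38 after NaB and 0.26 and -1.20 after the combination.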

How the results depend on the processing

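Of 58 counts of genes under an alternative to a reported count above 0, 45 stayed within 1.5 times of it. The other 64 were alternatives to a reported 0 and were 0 again, which says nothing of stability. In HepG2 after NaB the 2 genes past the threshold were 0 with a pseudocount of 5, with apportioned depth and as length-free abundance, where 4.31%, 6.86% and 10.2% of all genes were. After Cur+Pip the 2 were 4 with the largest transcript alone (18.9% of all genes), where SULT1A1 and GSTK1 were added, and 3 as length-free abundance (21.9%), where SULT1A1 was. After the combination the 5 were 3 with apportioned depth (15.9%) and as length-free abundance (22.7%). In the Hep3B-labelled libraries the 2 after the combination were 1 with a pseudocount of 5 (6.92%), with apportioned depth (11.9%) and as length-free abundance (16.8%). SULT2A1 and GSTA1 were past the threshold after Cur+Pip and after the combination in HepG2 under every alternative run. The count of genes that limma called between the lines ranged from 3 to 6 when 1 library was left out, and the shared treatment counts were 0 under every alternative. A pseudocount of 5 lost SULT2A1, a pseudocount of 0.1 lost MGST3 (limma adjusted p = 0.0589), and apportioned depth added GSTK1. Median-of-ratios scaling, with size factors of 0.949 for the Hep3B-labelled NaB library and 1.07 for its control, raised all log2 fold changes of that comparison, so that GSTP1 stood at 0.53, against 0.36 unscaled. The log2 fold change of GSTK1 in HepG2 after NaB was -1.80, and 0.33 as length-free abundance. Of 333 fold changes of single genes under an alternative, 245 stayed within their interval. Leaving out transcripts under 300 nt could not move a value, since every transcript of these genes was longer. Taking the largest transcript could not move a fold change between libraries with 1 transcript each. Such forced agreements are part of the 245 and of the 45 counts above, which therefore overstate stability. The sign differed in 12, over 9 fold changes. GSTK1 in HepG2 after NaB was the only one of these past the threshold in FPKM. The others with an absolute log2 fold change over 0.1 in FPKM were GSTO1 in HepG2 after Cur+Pip and after the combination, MGST1 in HepG2 after the combination and in the Hep3B-labelled NaB library, MGST3 in HepG2 after NaB, and SULT1A1 in the Hep3B-labelled NaB library, which was at -0.22, and at 0.31 with the largest transcript.

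With 1 library per condition the spread between cultures is unknown. The line contrast matches the libraries of each treatment across the lines and takes treatments as replicates. Where a left-out library leaves its partner alone, the partner is fitted exactly and adds nothing to the line difference. Leaving out either library of a treatment therefore gave the same line difference, such as -1.51 for MGST3 without either control. The 2 fits are not separate checks. Replicate numbers pair nothing further, since each condition has a single library. FPKM without counts gives no limit for a gene listed at 0.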
